A study of Mus musculus with 1 sample.

Results

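WNT ligands are secreted, lipid-modified proteins that act over short distances, so the cells that transcribe them set where the signal starts. The 6 genes described here are *Wnt4*, *Wnt5a*, *Wnt5b*, *Wnt6* and *Wnt16*, which encode ligands, and *Wls*, which encodes the carrier that takes every lipid-modified ligand to the cell surface. They were chosen by symbol from the 32285 genes listed, and each had 20 or more unique molecular identifiers (UMIs, 1 per captured transcript) in the cells kept. The choice rested on the UMIs themselves, seen across the classes of adrenal cells, so the levels below are a description and carry no test.

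The data are from 1 droplet library of wild-type mouse adrenal medulla at postnatal day 15. It holds male and female cells mixed, since 5 mice gave their 10 adrenals to a single suspension. Hand dissection had left some cortex on the medullae, and the input was 10000 viable cells. There was no treatment and no second group. With 1 library there are no replicates, so each level is given with an exact 95% Poisson interval, each share of cells with an exact (Clopper-Pearson) binomial interval and each ratio with an exact conditional interval, all of which cover counting error only.

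The adrenal cortex is built in layers. The outer zona glomerulosa makes aldosterone with the enzyme encoded by *Cyp11b2*, the zona fasciculata below it makes corticosterone with the enzyme encoded by *Cyp11b1*, and the X-zone of young mice, next to the medulla, is marked by *Akr1c18*. WNT4 is the ligand best known from the glomerulosa, where WNT signalling through beta-catenin holds the identity of the zone. WNT5A and WNT5B more often act through receptors of the ROR type, without beta-catenin. In the medulla, chromaffin cells make catecholamines, and the glia-like sustentacular cells lie between them.

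Of the 11214 barcodes, with 51421499 UMIs in all and 500 to 33809 UMIs each, 10139 passed the limits on genes and mitochondrial UMIs, and 9366 of those fell into 11 classes named by markers. The cortex-like class held 3355 cells with a median of 5114 UMIs. Endothelial-like (1750 cells), adrenaline chromaffin-like (1670) and immune-like (626) were the next largest, and the smallest were sustentacular-like (179 cells, median 1149 UMIs), cycling chromaffin-like (135) and fibroblast-like (89 cells, median 2052 UMIs). The fibroblast-like class met the rule with 4 of 7 fibroblast markers in at least 50% of its cells, and all 7 endothelial markers were in at least 25% of them, so its purity is limited. Another 730 cells sat in clusters with markers of more than 1 lineage, and 68.5% of these were called doublets. Whether the mice differed cannot be seen, since they share 1 library.

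All 5 ligands share the stretch that carries the lipid. Porcupine, the enzyme encoded by *Porcn*, attaches a fatty acid to a serine in this stretch, WLS binds the modified ligand, and receptors of the Frizzled family bind the same lipid. The 30 coding bases around the codon of that serine are shown from the GENCODE coding sequences (GRCm38, the mm10 build named in the submitters' processing notes), 5′ to 3′ on the coding strand, with the serine codon in capitals:

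Wnt4: aagtgtcacggggtgTCGggctcctgcgag

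Wnt5a: aagtgtcatggagtgTCTggctcctgtagc

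Wnt5b: aaatgtcacggagtcTCCgggtcctgcagc

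Wnt6: aagtgccatgggcttTCGggttcctgcgct

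Wnt16: cgctgccacggagttTCCggctcctgtgct

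The stretch was in exon 5 of 5 of *Wnt4* (chr4:137296342-137296371, plus strand), *Wnt5a* (chr14:28522512-28522541, plus strand) and *Wnt5b* (chr6:119433797-119433826, minus strand). It was in exon 4 of 4 of *Wnt6* (chr1:74784169-74784198, plus strand) and *Wnt16* (chr6:22297797-22297826, plus strand). The codon is number 212 of 351 in *Wnt4*, 244 of 380 in *Wnt5a*, 223 of 359 in *Wnt5b*, 227 of 364 in *Wnt6* and 226 of 364 in *Wnt16*. *Wnt5a* and *Wnt5b* were the most alike in it, with 24 of 30 bases the same, and *Wnt5b* and *Wnt6* the least alike, with 19 of 30. *Wnt5a* and *Wnt5b* also shared the longest run between any pair of the 6 genes, 29 bases, against 11 to 18 bases for the other pairs, which limits how many reads could be placed on the wrong member.

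The genes lie at chr4:137277489-137299726 (*Wnt4*, plus strand), chr14:28504750-28527448 (*Wnt5a*, plus), chr6:119432531-119544347 (*Wnt5b*, minus), chr1:74771892-74785322 (*Wnt6*, plus), chr6:22288227-22298522 (*Wnt16*, plus) and chr3:159839672-159938664 (*Wls*, plus). *Wnt4* and *Wnt16* overlap no other annotated gene. *Wnt5a*, *Wnt5b* and *Wnt6* each overlap a gene on the opposite strand (*Gm2670*, *Fbxl14* and *Gm29539*), and *Wls* overlaps *Gm43307* on its own strand. Only whole gene spans were compared, so whether any *Wls* UMIs could come from *Gm43307* was not tested.

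Of the 19 mouse ligand genes, 5 had 20 UMIs or more in the cells kept. *Wnt4* had 3105 UMIs in 921 cells, with up to 38 in a single cell. *Wnt5a* had 986 UMIs in 756 cells, *Wnt6* had 129 in 121, *Wnt5b* had 82 in 79, and *Wnt16* had 38 in 38. *Wls* had 2232 UMIs in 1847 cells and up to 4 in a cell. A further 8 ligands had between 1 and 15 UMIs: the most were 15 of *Wnt9b*, spread over 6 classes, 11 of *Wnt2*, with 8 of them in endothelial-like cells, and 8 of *Wnt8b*, all in cortex-like cells. *Wnt1*, *Wnt3a*, *Wnt7a*, *Wnt8a*, *Wnt10a* and *Wnt10b* had none. A UMI counts 1 transcript whatever its length, but capture may differ between genes.

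The ligands differed in place, though *Wnt4*, *Wnt5a* and *Wnt5b* all had most of their UMIs in cortex clusters. *Wnt4* was mainly in cortex-like cells, *Wnt5a* in fibroblast-like and cortex-like cells, *Wnt5b* at low level in cortex clusters, *Wnt6* in sustentacular-like cells and *Wnt16* at very low level in chromaffin-like cells, while *Wls* was in every class. A single ligand made up most of the ligand UMIs in several classes: *Wnt6* made up 93.5% of the 46 ligand UMIs in sustentacular-like cells and 78.9% of the 57 in transitioning-like cells, and *Wnt4* made up 76.0% of the 3620 in cortex-like cells. In fibroblast-like cells *Wnt5a* held 50% of 56 ligand UMIs and *Wnt4* 35.7%. In adrenaline chromaffin-like cells *Wnt16* held 38.7% and *Wnt6* 24.2% of only 62. Per 1000000 UMIs of the class (CPM), all ligands together came to 199 in sustentacular-like cells (95% interval 146 to 265), 197 in fibroblast-like cells (149 to 256) and 171 in cortex-like cells (166 to 177), against 8.03 (5.53 to 11.3) in endothelial-like cells.

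**Figure D1:**
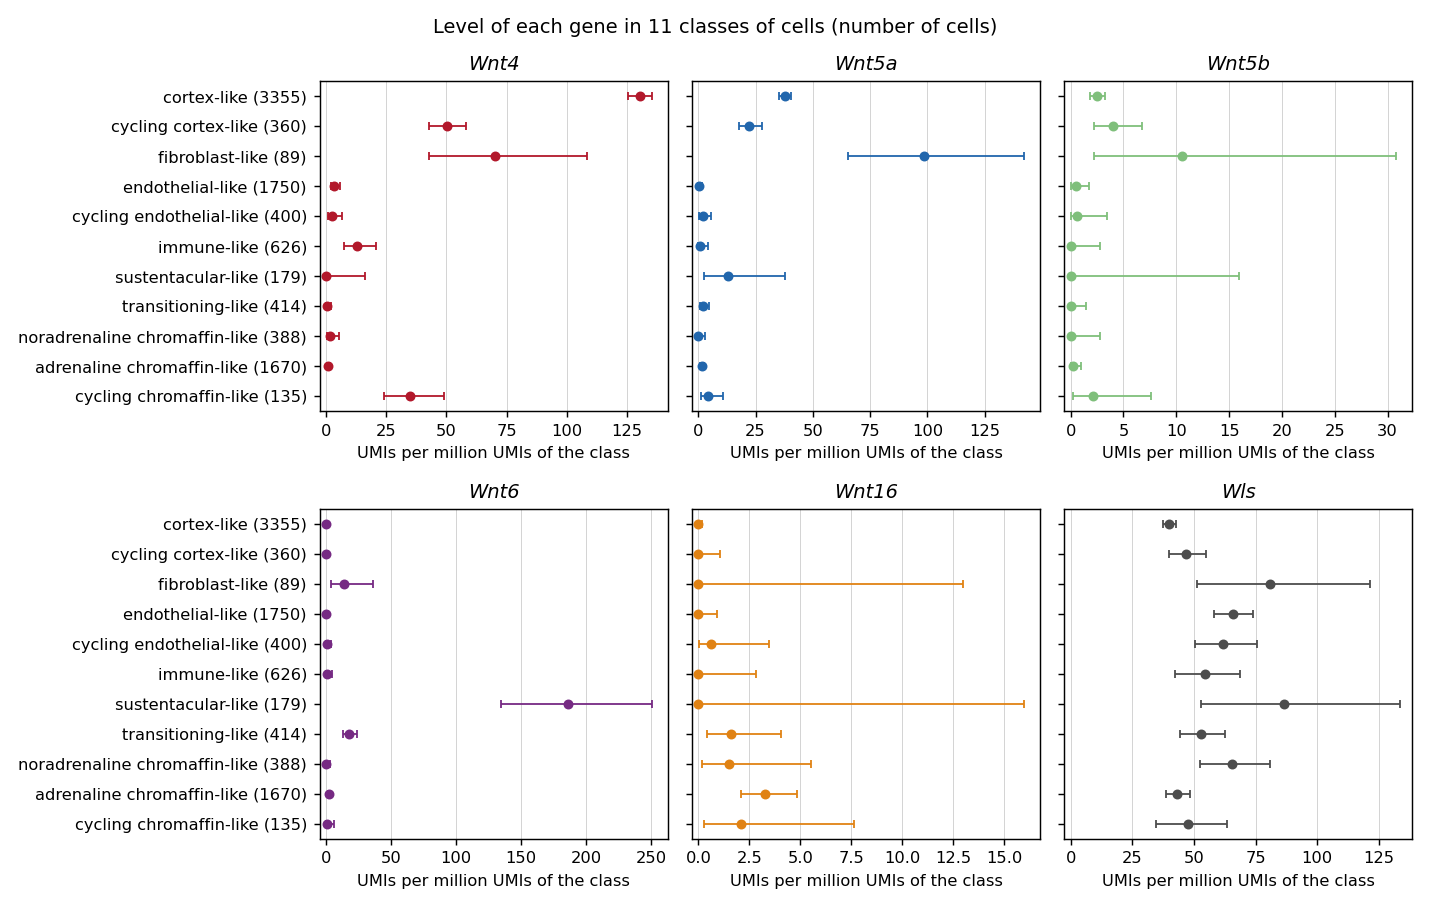
Level of each of the 6 genes (UMIs per 1000000 UMIs of the class, with exact 95% Poisson intervals) in the 11 classes, with the number of cells in brackets. *Wnt4* peaks in cortex-like cells at 130, *Wnt5a* in fibroblast-like cells at 98.4 and *Wnt6* in sustentacular-like cells at 186, while *Wls* lies between 39.9 and 86.5 in all classes.

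*Wnt4*, the glomerulosa ligand, stood at 130 CPM (125 to 135) in cortex-like cells, from 2750 UMIs in 23.3% of cells (21.9 to 24.8%). These were 91.1% of its UMIs in all named classes. Fibroblast-like cells followed at 70.3 CPM (42.9 to 109), a level 1.85 times lower (1.20 to 3.04), and cycling cortex-like cells at 50.1 (42.9 to 58.1), which were not separated from the fibroblast-like level (ratio 1.40, 0.836 to 2.24). Cycling chromaffin-like cells had 34.8 CPM (24.0 to 48.9), immune-like cells 13.0 (7.58 to 20.8) and endothelial-like cells 3.41 (1.86 to 5.71). Cycling endothelial-like cells held 4 UMIs, adrenaline chromaffin-like cells 5, noradrenaline chromaffin-like cells 2 and transitioning-like cells 1. The 179 sustentacular-like cells held none, which allows up to 16.0 CPM and leaves the cortex-like level at least 8.16-fold higher by the exact interval.

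The lower ranks of that order moved with cortical transcripts. *Star*, which encodes the cholesterol carrier of steroid-making cells, marks cortex or RNA from it. In fibroblast-like cells 19 of the 20 *Wnt4* UMIs were in the 22 cells with a *Star* UMI (149 CPM, 89.5 to 232), and 1 was in the other 67 cells (6.38 CPM, 0.161 to 35.5). In immune-like cells it was 14 of 17 UMIs, and in cycling chromaffin-like cells 26 of 33, with 20 of those 33 in the 17 cells called doublets. In these 3 classes most *Wnt4* UMIs sat in cells that also held *Star*, and the part of cortical RNA in the levels was not tested. The share of endothelial-like cells with a *Wnt4* UMI, 0.743% (0.396 to 1.27%) at a median of 1771.5 UMIs, gives the level in a class far from the cortical lineage.

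*Wnt5a* was highest in fibroblast-like cells, with 28 UMIs in 19 of 89 cells (98.4 CPM, 65.4 to 142), and 2.59 times lower (1.71 to 3.78) in cortex-like cells, with 801 UMIs in 18.1% of cells (37.9 CPM, 35.4 to 40.7). That lead is not stable. With cells chosen by their own marker UMIs the fibroblast-like level was 35.6 CPM (27.1 to 45.9), which is not above the level of the clustered cortex-like cells. The cortex-like level was not taken with cells chosen that way. Coarser clusters or stricter limits on cells left no fibroblast-like class. In the fibroblast-like class its level was not separated by *Star*: the 67 cells without a *Star* UMI had 18 UMIs (115 CPM, 68.1 to 181) and the 22 with one had 10 (78.2 CPM, 37.5 to 144). Other cortical transcripts did move with it: the 19 cells with *Wnt5a* had 1039 CPM of *Cyp11a1*, which encodes the first enzyme of steroid synthesis, and the 70 without had 192 (ratio 5.41, 3.67 to 8.13), at median depths of 2964 and 1869.5 UMIs. The part of cortical RNA in this level was not tested. Because cortex-like cells are so many, they still held 85.7% of all *Wnt5a* UMIs in named classes. Cycling cortex-like cells had 22.3 CPM (17.6 to 27.9), sustentacular-like cells 13.0 from 3 UMIs, and the other classes at most 4.22 CPM. Noradrenaline chromaffin-like cells had none, and endothelial-like cells 2 UMIs.

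*Wnt5b*, the close relative of *Wnt5a*, was sparse. Cortex-like cells had 52 UMIs (2.46 CPM, 1.84 to 3.23) and cycling cortex-like cells 14 (4.05 CPM, 2.22 to 6.80), a ratio of 1.65 (0.842 to 3.01) between them that does not separate the 2 levels. Fibroblast-like cells had 3 UMIs, all in cells with a *Star* UMI (10.5 CPM, 2.17 to 30.8), and cycling chromaffin-like, endothelial-like and adrenaline chromaffin-like cells 2 each. Immune-like, sustentacular-like, transitioning-like and noradrenaline chromaffin-like cells had none. At this depth no order among the classes below the cortex could be detected.

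*Wnt6* marked the glia-like cells. The sustentacular-like class had 43 UMIs in 39 of 179 cells (186 CPM, 135 to 251, 21.8% of cells), and the transitioning-like class, which holds sustentacular and chromaffin markers together, 45 UMIs in 42 of 414 cells (17.8 CPM, 12.9 to 23.8). Per UMI, the level was 10.5 times higher (6.74 to 16.3) in sustentacular-like cells. Their median depth was 1149 UMIs against 5180.5, so the gap per cell is smaller, with 43 UMIs in 179 cells against 45 in 414. With cells chosen by their own marker UMIs the sustentacular-like level was lower, at 101 CPM (70.8 to 140). Stricter limits on cells left no sustentacular-like class, and the transitioning-like class then led at 19.6 CPM. Thinned to 1000 UMIs per cell, 16.3% of sustentacular-like and 2.43% of transitioning-like cells held a *Wnt6* UMI. Thinning leaves out cells with fewer UMIs, here 56 of the 179 sustentacular-like and 2 of the 414 transitioning-like cells. Fibroblast-like cells had 4 UMIs (14.1 CPM, 3.83 to 36.0), which were not separated from the transitioning-like level, adrenaline chromaffin-like cells 15 (2.04 CPM, 1.14 to 3.36), and noradrenaline chromaffin-like cells none. Sustentacular-like cells without a *Star* UMI had 197 CPM (140 to 270). In endothelial-like cells 1 of 1750 cells held a *Wnt6* UMI.

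*Wnt16* was sparse and mostly medullary. Of its 33 UMIs in named classes, 24 were in adrenaline chromaffin-like cells (3.26 CPM, 2.09 to 4.85), 4 in transitioning-like, 2 in noradrenaline chromaffin-like and 2 in cycling chromaffin-like cells, and 1 was in a cycling endothelial-like cell called a doublet. No cell held more than 1. The 3355 cortex-like cells had none, which allows up to 0.175 CPM and makes the adrenaline chromaffin-like level at least 17.3-fold higher by the exact interval. Among the medullary classes themselves the levels were not separated, at ratios of 1.54 (0.383 to 13.5) to 2.14 (0.532 to 18.7) between adrenaline and the other chromaffin-like classes.

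*Wls* was not set apart by class in this way. It was in every class, from 39.9 CPM (37.3 to 42.7) in cortex-like to 86.5 (52.9 to 134) in sustentacular-like cells, a ratio of 2.17 (1.32 to 3.37). Fibroblast-like cells had 80.8 CPM (51.2 to 121), endothelial-like cells 65.7 (58.1 to 74.0) and noradrenaline chromaffin-like cells 65.5 (52.4 to 80.9). No class differed from the next in the order by more than the counting interval. The ligand totals of the same classes ran from 4.57 to 199 CPM. Endothelial-like cells, with 8.03 CPM of ligand, held more *Wls* per UMI than cortex-like cells.

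The cortex was not uniform. It formed 4 clusters, called here by a leading gene: a *Dab2*-high cluster of 755 cells, a *Cyp11b1*-high cluster of 907, an *Akr1c18*-high cluster of 1693 and a cycling cluster of 360. *Dab2*, which encodes an endocytic adaptor used as a glomerulosa marker, had 578 CPM in the first, 132 in the second and 3.74 in the third. *Cyp11b2* had 55 UMIs in 33 cells of the first, 6 in 5 cells of the second and none in the others. Since the ligands were among the genes clustered, their differences between clusters are a description of the clusters.

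*Wnt4* fell into a steep order over these clusters. It had 483 CPM (463 to 502) in the *Dab2*-high cluster, where 72.3% of cells held a UMI, 69.3 (62.7 to 76.4) in the *Cyp11b1*-high cluster, where 25.1% did, and 0.767 (0.331 to 1.51) in the *Akr1c18*-high cluster, where 8 of 1693 cells held 1 each. The *Dab2*-high level was 6.96 times that of the *Cyp11b1*-high cluster (6.26 to 7.76) and 629 times that of the *Akr1c18*-high cluster (319 to 1459). Thinned to 1000 UMIs a cell, the shares of cells were 36.8%, 6.29% and 0.0591%. The *Akr1c18*-high share of 0.472% lies below the 0.743% of endothelial-like cells, at a higher depth. It lies above the 0.299% of adrenaline chromaffin-like cells. No background level was measured, so whether this share exceeds it was not tested.

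*Wnt5a* followed another order. Its levels of 65.2 CPM (58.2 to 72.8) in the *Dab2*-high and 62.4 (56.2 to 69.2) in the *Cyp11b1*-high cluster were not separated (ratio 1.04, 0.896 to 1.22), and both exceeded the 11.6 CPM (9.62 to 13.9) of the *Akr1c18*-high cluster, by 5.62 times (4.55 to 6.99) and 5.38 times (4.37 to 6.67). That lowest level was still well above the 0.486 CPM of endothelial-like cells. *Wnt5b* ran the other way between the latter clusters, with 1.20 CPM (0.483 to 2.47) in the *Cyp11b1*-high and 3.07 (2.10 to 4.33) in the *Akr1c18*-high cluster, a ratio of 0.391 (0.146 to 0.903) from 7 and 32 UMIs. *Wls* had 58.4 CPM (51.8 to 65.6), 39.4 (34.5 to 44.9) and 31.6 (28.3 to 35.2) in the 3 clusters, so its level in the *Dab2*-high cluster was 1.85 times (1.57 to 2.17) that in the *Akr1c18*-high cluster.

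As a result the make-up of the ligands changed from cluster to cluster. *Wnt4* made up 87.4% of 2675 ligand UMIs in the *Dab2*-high cluster and 51.7% of 782 in the *Cyp11b1*-high cluster, where *Wnt5a* made up 46.5%. In the *Akr1c18*-high cluster *Wnt5a* made up 74.2% and *Wnt5b* 19.6% of only 163, and *Wnt4* 4.91%. The level of all ligands together dropped from 552 CPM (531 to 573) through 134 (125 to 144) to 15.6 (13.3 to 18.2).

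Cells were next divided by the 2 enzymes themselves, whatever their cluster. Of the 3715 cortex cells 38 held a *Cyp11b2* UMI, 23 of them only 1. The others were grouped by *Cyp11b1*: 1999 had no UMI of it, 759 had a lower level and 919 the highest, above 2945 CPM. The transcripts of *Cyp11b1* (chr15:74834125-74841643, minus strand) and *Cyp11b2* (chr15:74851010-74856318, minus strand) share runs of up to 244 identical bases, so some reads cannot be placed between them and the division is uncertain by that much. Of the 38 cells with *Cyp11b2*, 10 also held *Cyp11b1*. The group without *Cyp11b1* was mostly the *Akr1c18*-high cluster, 78.9% of its cells.

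Nearly every *Cyp11b2* cell held *Wnt4*, 37 of 38 (97.4%, 86.2 to 99.9%), against 21.6% (20.3 to 23.0%) of cells without *Cyp11b2*, at median depths of 5562 and 5346 UMIs. The levels were 1059 CPM (939 to 1189) and 108 (104 to 113), a ratio of 9.75 (8.60 to 11.02). The *Dab2*-high cluster held 33 of the 38 cells, and within it the ratio was 2.81 (2.47 to 3.19). It was 3.64 (1.92 to 6.31) within the *Cyp11b1*-high cluster. Over the cortex thinned to 1000 UMIs a cell it was 14.8, with 13 cells that still held a *Cyp11b2* UMI. The same cells had 29.6 CPM of *Wnt5a* (12.8 to 58.4) from 8 UMIs, which was not separated from the 35.8 CPM (33.5 to 38.3) of the others, and *Wls* was not separated either, at 51.8 against 40.8 CPM (ratio 1.27, 0.692 to 2.14). Of the 4 *Wnt6* UMIs in cortex cells, 2 were in cells with *Cyp11b2*.

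By *Cyp11b1*, *Wnt4* was highest in the middle. It had 47.5 CPM (43.8 to 51.5) in cells without *Cyp11b1*, 267 (253 to 281) in the lower group and 100.2 (92.6 to 108) in the highest, so the lower group was 2.67 times the highest (2.43 to 2.93). With stricter limits on cells (1000 genes, 10% mitochondrial UMIs) the groups were formed anew, with 179 cells in the lower and 646 in the highest. The ratio between them was then 0.921 (0.807 to 1.05), so the order of these 2 groups is not stable. *Wnt5a* rose with the enzyme instead, from 11.7 CPM (9.85 to 13.7) through 54.4 (48.3 to 61.2) to 67.8 (61.6 to 74.5), the highest group being 5.82 times the cells without (4.82 to 7.06). *Wnt5b* had 3.01, 3.66 and 1.23 CPM, and its highest group was below the cells without *Cyp11b1* (ratio 0.409, 0.165 to 0.890, from 8 and 38 UMIs). *Wls* had 34.5, 56.6 and 40.4 CPM.

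**Figure D2:**
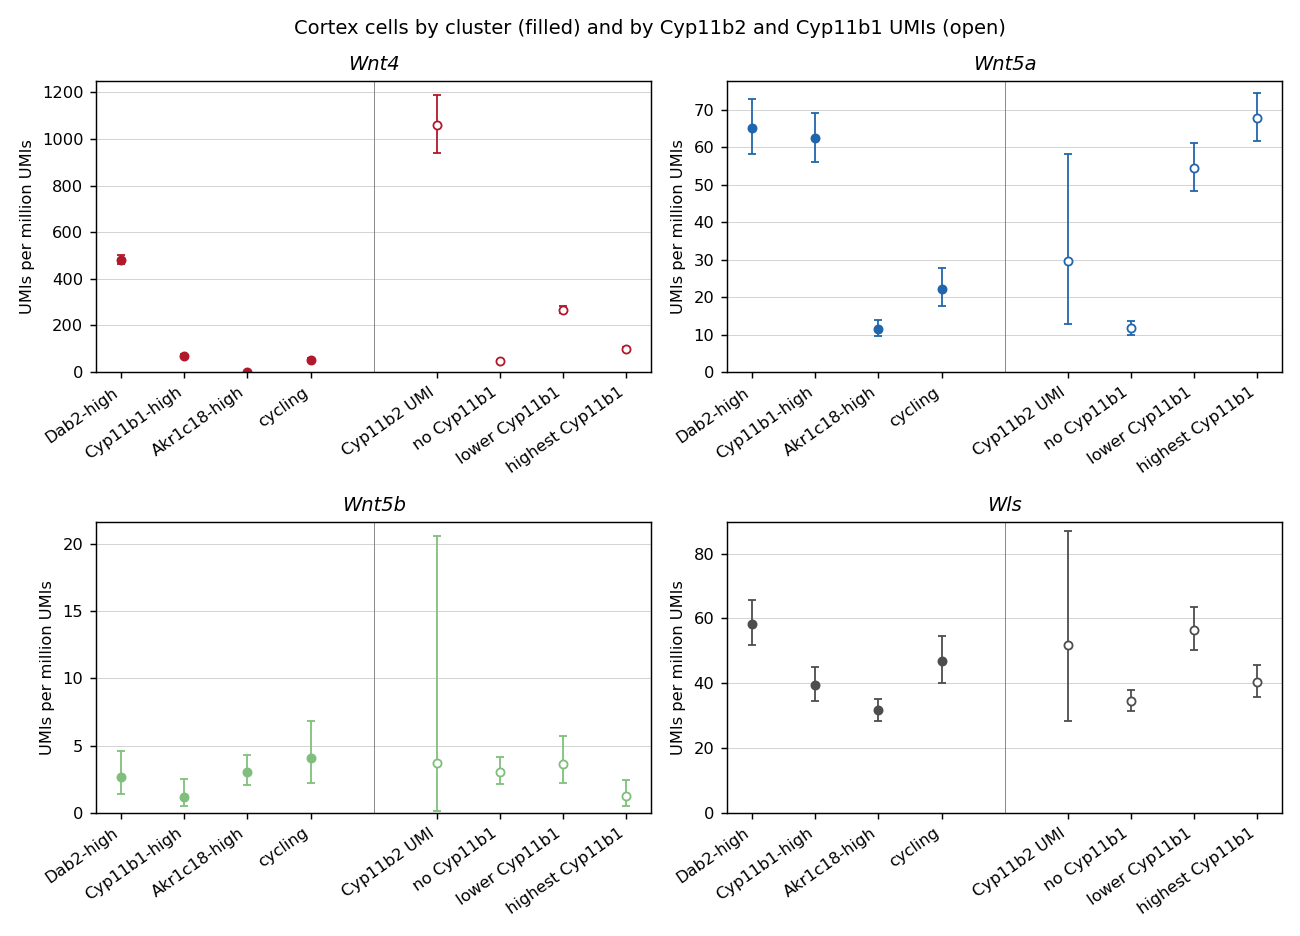
Levels (UMIs per 1000000 UMIs, with exact 95% Poisson intervals) of the genes in cortex cells by cluster (filled) and by *Cyp11b2* and *Cyp11b1* UMIs (open). *Wnt4* reaches 1059 in cells with *Cyp11b2* and 0.767 in the *Akr1c18*-high cluster, while *Wnt5a* is highest, at 67.8, in the group with the most *Cyp11b1*.

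The group without *Cyp11b1* was of 2 kinds. Its 114 cells in the *Dab2*-high cluster held 542 of its 599 *Wnt4* UMIs, and its 1578 cells in the *Akr1c18*-high cluster held 4. Within the *Dab2*-high cluster alone, *Wnt4* fell as *Cyp11b1* rose: 1352 CPM (1240 to 1471) in the 114 cells without *Cyp11b1*, 470 (443 to 498) in 391 cells at the lower level and 209 (189 to 232) in 217 cells at the highest. The highest group was thus 0.155 times the cells without *Cyp11b1* (0.135 to 0.177), whereas over all cortex cells it was 2.11 times (1.89 to 2.36). With every cell thinned to 1000 UMIs it was 0.901 times (0.688 to 1.17). The groups were then formed anew from the thinned counts, so 2258 cells had no *Cyp11b1* UMI, against 1999 before. The 33 *Cyp11b2* cells of this cluster all held *Wnt4*, at 1256 CPM (1111 to 1414), a level whose interval overlaps that of the cells without *Cyp11b1*. Of those 114 cells 91.2% held *Wnt4* at a median of only 2577.5 UMIs, against 58.5% of the 217 at a median of 6958. *Wnt4* and *Cyp11b1* were not left out of the clustering, so which cells without *Cyp11b1* fell in this cluster may depend on their *Wnt4*. The orders within clusters, here and below, are therefore a description only. No level within a cluster was computed with these genes left out.

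*Wnt5a* within the same cluster went the opposite way. It had 24.9 CPM (12.0 to 45.9) from 10 UMIs without *Cyp11b1*, 72.3 (62.0 to 83.7) at the lower and 68.6 (57.0 to 81.9) at the highest level, the latter being 2.75 times the cells without (1.45 to 5.88). *Wls* had 72.3 (48.4 to 104), 64.9 (55.2 to 75.8) and 47.3 (37.7 to 58.5) CPM, and its ratio of highest to none, 0.653 (0.424 to 1.03), did not separate the groups.

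In the *Cyp11b1*-high cluster *Wnt4* fell the same way, from 132 CPM (87.5 to 190) in 44 cells without *Cyp11b1*, though its 28 UMIs there were in only 4 cells, through 98.9 (81.3 to 119) to 56.8 (50.0 to 64.3) at the highest level. The lower group was 1.74 times the highest (1.38 to 2.19), and the lower group and the cells without were not separated (0.751, 0.492 to 1.18). *Wnt5a* in the *Cyp11b1*-high cluster had 37.6 CPM (16.2 to 74.1) from 8 UMIs without *Cyp11b1*, 53.1 (40.4 to 68.4) at the lower and 66.5 (59.1 to 74.5) at the highest level, and the ratio of highest to none, 1.77 (0.885 to 4.13), did not separate the groups. The cycling cluster differed: *Wnt4* had 10.3 CPM (6.69 to 15.3) in 263 cells without *Cyp11b1*, 156 (130 to 186) in 75 cells at the lower level and 99.9 (64.7 to 147) in 22 at the highest, so the highest was 9.66 times the cells without (5.32 to 17.5). *Wnt5a* rose there as well, from 7.45 CPM through 47.0 to 87.9. *Akr1c18* had 5599 CPM in the cycling cluster against 33.6 in the *Dab2*-high cluster, and 73.1% of the cycling cells had no *Cyp11b1*. In the *Akr1c18*-high cluster *Wnt4* had 4 UMIs in the cells without *Cyp11b1* and 4 in the 113 at the lower level.

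**Figure D3:**
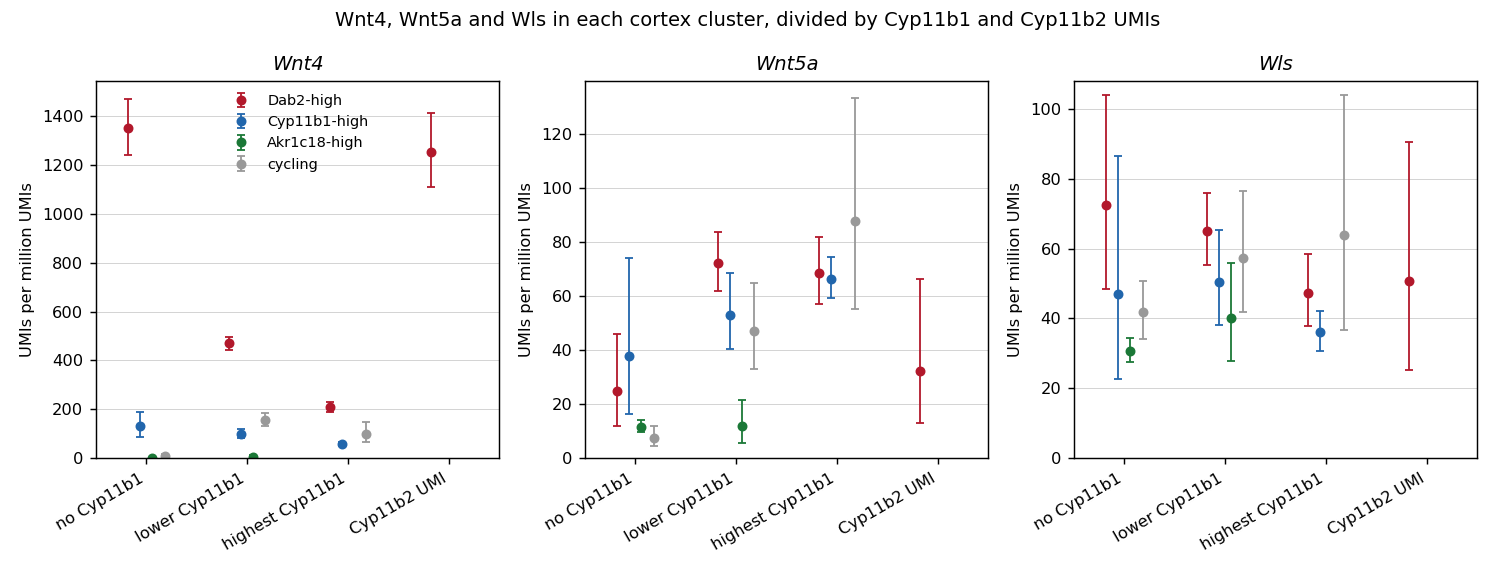
*Wnt4*, *Wnt5a* and *Wls* (UMIs per 1000000 UMIs, with exact 95% Poisson intervals) in each cortex cluster, divided by *Cyp11b1* and *Cyp11b2* UMIs. In the *Dab2*-high cluster *Wnt4* falls from 1352 without *Cyp11b1* to 209 at its highest level, and in the cycling cluster it is lowest, at 10.3, without *Cyp11b1*.

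The cortex cells were also graded by their own *Wnt4* UMIs, over all clusters together. Of 3715 cells 2882 had no *Wnt4* UMI, 313 had 1, 152 had 2, 216 had 3 to 5 and 152 had 6 or more. *Dab2* rose at each step, from 38.5 CPM (35.7 to 41.5) through 271, 417 and 551 to 843 (796 to 892). *Agtr1a*, which encodes an angiotensin receptor and is among the glomerulosa genes listed, rose from 20.2 to 149. By *Cyp11b1*, though, *Agtr1a* had 14.7 CPM in cells without it, 75.2 in the lower and 69.5 in the highest group. *Agtr1b* went from 0 CPM without *Wnt4* to 18.1 in the last step, and *Hsd3b6*, from few UMIs, from 0.382 to 2.08. *Cyp11b2* rose from 0.0546 to 24.996 CPM. *Cyp11b1* was not monotonic: it had 1283 CPM in cells without *Wnt4*, 3998 in cells with 1 UMI, then 3177 and 2499, and 1276 in cells with 6 or more. The other fasciculata genes listed did not go together. *Mc2r* rose from 154 CPM without *Wnt4* to 566 at 1 UMI and was 483 in the last step. *Akr1b7* went from 428 to 1014 at 1 UMI and 264 in the last step, and *Mrap* fell from 1466 to 207. Of the X-zone genes, *Akr1c18* was at 5700 CPM without *Wnt4* and 195 in the highest step, and *Pik3c2g* at 424 and 3.47. *Wnt5a* stepped up from 24.8 CPM (22.5 to 27.2) to 62.2 (51.9 to 74.0) at the first UMI and did not rise beyond the counting intervals after that, at 72.9 (59.6 to 88.3) in the last step. Of the 2882 cells without *Wnt4*, 1685 were in the *Akr1c18*-high cluster, where *Wnt5a* and *Cyp11b1* were low. The other 8 cells of that cluster had 1 *Wnt4* UMI each, so the first step also changes the mix of clusters. Median depth ran from 5132 to 8668.5 UMIs, and deeper cells reach more UMIs of any gene, which CPM corrects for the other genes but not for the sorting by *Wnt4*.

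**Figure D4:**
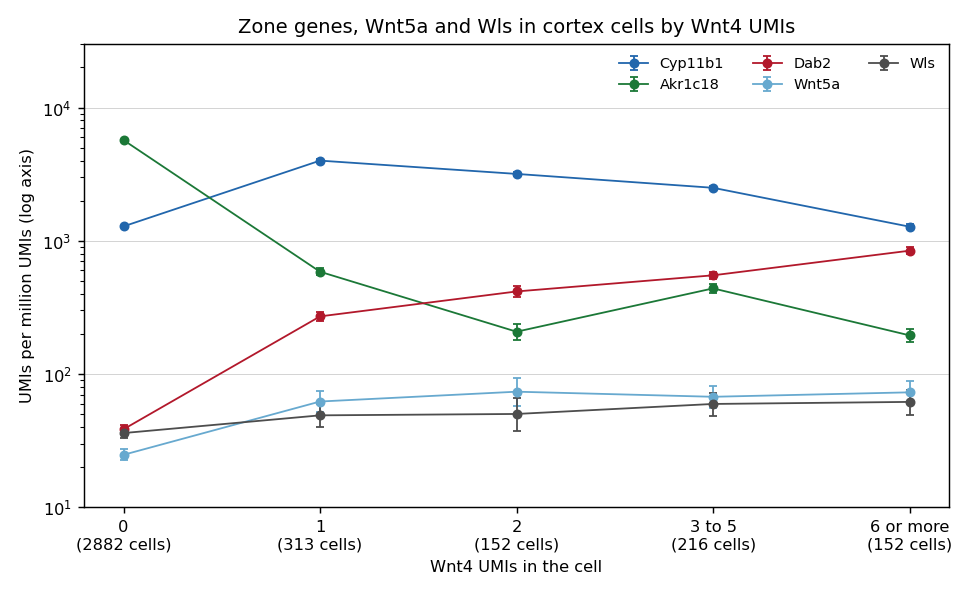
Zone genes, *Wnt5a* and *Wls* (UMIs per 1000000 UMIs, log axis, with exact 95% Poisson intervals) in cortex cells sorted by their number of *Wnt4* UMIs. *Dab2* climbs from 38.5 to 843, *Akr1c18* drops from 5700 to 195, and *Cyp11b1* peaks at 3998 in cells with 1 *Wnt4* UMI.

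The 2 main ligands of the cortex were also looked for in the same cell. *Wnt4* and *Wnt5a* were both detected in 290 of 3715 cortex cells, where the product of their shares gives 149. Of cells with *Wnt4* 34.8% (31.6 to 38.2%) also held *Wnt5a*, against 13.0% (11.8 to 14.3%) of cells without, at median depths of 6322 and 5132 UMIs. Thinned to 1000 UMIs a cell the shares were 4.87% (2.86 to 7.68%) and 2.94% (2.40 to 3.57%), with intervals that overlap. Thinning removes most UMIs of both genes, so this overlap does not decide whether the gap holds at equal depth. In cells at or above the median depth the shares were 48.2% (43.7 to 52.7%) and 18.3% (16.3 to 20.5%). Of the 290 cells 10 were called doublets, where 77 of all 3355 cortex-like and 15 of all 360 cycling cortex-like cells were. With called doublets left out the shares were 35.1% (31.8 to 38.6%) and 12.9% (11.7 to 14.2%). The part of doublets that were not called was not tested. In endothelial-like cells, for comparison, 0.114% held *Wnt5a*.

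Within clusters the gap was smaller. Inside the *Dab2*-high cluster the shares were 32.2% (28.3 to 36.3%) and 25.8% (20.1 to 32.3%), with 176 cells against a product of 166. Divided into 3 equal parts by depth, that cluster had 14, 45 and 117 cells with both against products of 17.5, 43.9 and 112, so within a depth group the counts lay near the products. The *Cyp11b1*-high cluster had 88 cells against 66.9, and by depth 8, 17 and 63 against 5.25, 17.9 and 58.1. The cycling cluster was the exception: 25 cells held both against a product of 8.07, 49.0% (34.8 to 63.4%) of cells with *Wnt4* and 10.4% (7.19 to 14.3%) of those without held *Wnt5a*, and each depth group showed the excess, with 2, 6 and 17 cells against 0.525, 2.55 and 6.60. In that cluster 77.5% of cells held *Akr1c18*, so it is not of 1 kind. In the *Akr1c18*-high cluster 1 cell held both.

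**Figure D5:**
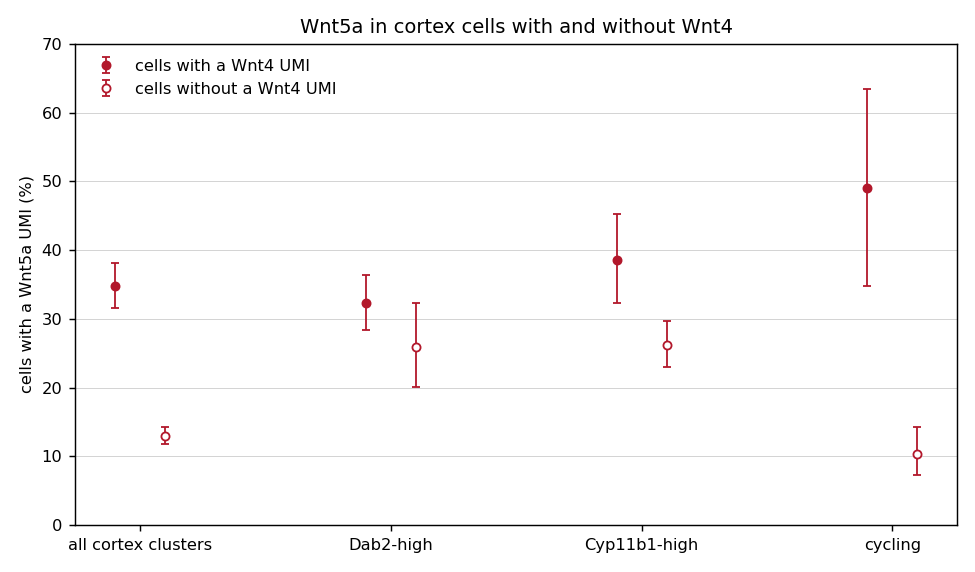
Share of cortex cells with a *Wnt5a* UMI (%, with exact 95% binomial intervals) among cells with (filled) and without (open) a *Wnt4* UMI. The gap of 34.8% against 13.0% over all cortex clusters narrows to 32.2% against 25.8% in the *Dab2*-high cluster and is widest, 49.0% against 10.4%, in the cycling cluster.

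*Wls* was compared in the same way, and cells with a ligand were also deeper. In the cortex 32.2% of cells with *Wnt4* and 19.0% of those without held *Wls*, and in the *Dab2*-high cluster 31.7% (27.8 to 35.8%) against 22.0% (16.6 to 28.2%). With that cluster divided by depth, 25, 48 and 100 cells held *Wnt4* and *Wls* against products of 24.4, 42.6 and 96.7. In sustentacular-like cells 7 of 39 cells with *Wnt6* held *Wls* (17.9%, 7.54 to 33.5%), against 7.86% (3.99 to 13.6%) of the others, and in transitioning-like cells 16 of 42 (38.1%, 23.6 to 54.4%) against 24.7% (20.4 to 29.4%), with overlapping intervals in both classes. At a median near 1149 UMIs a sustentacular-like cell without a *Wls* UMI may still transcribe the gene. No sustentacular-like cell held *Wnt4* and *Wnt6* together, and 1 held *Wnt5a* and *Wnt6*. In fibroblast-like cells 3 of the 4 cells with *Wnt6* also held *Wnt5a*. Counting every ligand, 34.7% of cortex-like, 30.3% of fibroblast-like and 22.9% of sustentacular-like cells held at least 1, against 1.77% of endothelial-like cells, and 8.50% of cortex-like cells held more than 1.

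The mice were of both sexes, and some of their cells can be told apart by *Xist* and by genes of the Y chromosome. By these, 1954 cells were female and 3996 male, while 3976 held neither and 213 both, among them 958 and 70 of the cortex cells. *Wnt4* had 194 CPM (183 to 206) in 818 female and 99.5 (94.4 to 105) in 1869 male cortex cells, a ratio of 1.95 (1.80 to 2.11). Within the *Dab2*-high cluster it was 603 (563 to 644) against 425 (400 to 450), a ratio of 1.42 (1.30 to 1.55), in the *Cyp11b1*-high cluster 1.33 (1.06 to 1.67) and in the cycling cluster 2.49 (1.80 to 3.43). *Dab2* was higher in female cells of the *Dab2*-high cluster as well (ratio 1.40, 1.29 to 1.52). *Wnt5a* was not separated between the sexes in that cluster (1.01, 0.781 to 1.30), and *Wls* was lower in female cells (0.720, 0.530 to 0.966). Of the sustentacular-like cells 130 of 179 held neither, so for *Wnt6*, with 4 UMIs in 23 female and 7 in 26 male cells, the ratio of 0.504 (0.108 to 1.98) did not separate the sexes. How many mice of each sex were pooled is not given in the sources used here, so sex cannot be told apart from the animal or from how much cortex each kept.

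The rest of the pathway was read against all genes, calling a gene where CPM + 10 differed at least 2-fold and the 2 groups together held 20 UMIs. Between cortex cells with and without *Cyp11b2*, 4.65% of 12658 genes were called higher and 3.9% lower. Of the ligands 3 were tested and *Wnt4* was called higher, at 9.02-fold on CPM + 10. None of 8 genes for acylation, export and inactivation was called, *Porcn*, *Wls* and the retromer genes *Vps35*, *Vps26a* and *Vps29*, which return WLS to the Golgi, among them. With 10 CPM added, a gene as low as *Porcn* cannot be called lower and is called higher only at a much larger change. The rule therefore says little about *Porcn*. Of 14 receptors and co-receptors, *Fzd3* (37.0 against 12.0 CPM) and *Fzd5* (25.9 against 5.89 CPM, from 7 UMIs) were called higher. The group rests on 38 cells, and its receptor calls rest on 10 and 7 UMIs. Between the highest *Cyp11b1* group and cells without *Cyp11b1*, where 3.12% of genes were called higher and 2.71% lower, *Wnt5a* was called higher (3.59-fold) and none of 13 receptors in either direction. *Wnt4* stood at 100.2 against 47.5 CPM there, 1.92-fold on CPM + 10, and was not called.

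Between clusters, *Wnt4* (6.21-fold, 1 of 3 ligands) and 1 of 14 receptor genes, *Fzd4* (27.7 against 6.69 CPM), were called higher in *Dab2*-high than in *Cyp11b1*-high cells, where 4.08% of all genes were called higher and 0.992% lower. The *Akr1c18*-high cluster had 25.6 CPM of *Fzd4*. Against the *Akr1c18*-high cluster, with 8.2% of genes called higher and 4.15% lower, *Wnt4* (45.7-fold), *Wnt5a* (3.48-fold), *Fzd3* and *Fzd5* (2 of 13 receptors) were called higher. Cortex cells with a *Wnt4* UMI had *Wnt5a* (2.24-fold) and *Fzd3* (26.8 against 7.37 CPM) higher than cells without, where 3.1% of genes were called higher and 2.13% lower. *Wnt4* itself sorted those cells and is no result there. Of the 2882 cells without *Wnt4*, 1685 were in the *Akr1c18*-high cluster, so these calls also reflect the mix of clusters. The members were chosen with their levels in such contrasts known, and the percentages are given as background to their calls. Over these 5 cortical comparisons no gene for acylation or export was called.

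The same lists were read outside the cortex, where classes are small and calls from few UMIs can arise from counting error alone. In counts simulated for sustentacular-like over transitioning-like cells, with 100 genes raised and 100 lowered 4-fold, the same fold rule called 928 unchanged genes among 9583. The altered genes also shift the share of all others, so these calls are not from counting error alone. That contrast is also not among those below. In fibroblast-like cells against all other named cells, 7.57% of genes were called higher and 5.56% lower. *Wnt5a* (3.54-fold) and 4 of 15 receptors were called higher, namely *Fzd2*, *Fzd4*, *Ror1* and *Ror2*. *Fzd4* was also high in endothelial-like cells, as given below. The fibroblast-like class held 4111 CPM of the endothelial markers, against 7737 in endothelial-like cells. The part of endothelial RNA in the *Fzd4* call was not tested. The *Ror* genes encode receptors for WNT5A, and each had 14.1 CPM from 4 UMIs in this class. In sustentacular-like cells, where 6.7% of genes were called higher and 10.7% lower, *Wnt6* (16.9-fold), *Fzd3* (73.6 against 20.1 CPM) and *Fzd7* (from 3 UMIs) were called higher, and *Wnt4* and *Fzd4*, both at 0 UMIs, lower, so 3 of 15 receptors were called, a count near the background of all genes. In adrenaline chromaffin-like cells, with 6.62% called higher and 9.46% lower, *Wnt4*, *Wnt5a*, *Snx3* and *Fzd4* were called lower. In cortex-like cells, with 3.97% called higher and 10.4% lower, *Wnt4* (6.49-fold) and *Wnt5a* (3.04-fold) were called higher and none of 15 receptors in either direction.

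Among the receptors, *Fzd3* and *Fzd4* divided the classes. *Fzd3* had 63.5 CPM (54.1 to 74.1) in transitioning-like, 62.4 (49.7 to 77.5) in noradrenaline chromaffin-like, 45.4 in cycling chromaffin-like and 37.5 (33.2 to 42.2) in adrenaline chromaffin-like cells, against 13.3 in cortex-like and 2.68 in endothelial-like cells. *Fzd4*, by contrast, had 172 CPM (160 to 185) in endothelial-like cells and no UMI in noradrenaline, adrenaline or sustentacular-like cells. *Porcn*, without which no ligand is secreted, was low throughout, from 1.71 CPM (1.19 to 2.36) in cortex-like to 10.1 (7.89 to 12.6) in adrenaline chromaffin-like and 13.0 (2.68 to 37.9, from 3 UMIs) in sustentacular-like cells. Cycling cortex-like cells had 1.74 CPM (0.637 to 3.78), not separated from cortex-like cells. *Notum*, which encodes the enzyme that removes the lipid, had 5 UMIs, all in cortex-like cells.

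Within its leading class, each gene was set beside the genes that most separated cells with it from cells without it. For *Wnt4* in cortex-like cells (782 with, 2573 without) these were *Ecrg4* (54.8-fold on CPM + 10, 750 against 3.88 CPM), *Ly6d* (18.8-fold), *Dab2* (10.1-fold), *Meg3* (9.58-fold) and *Cpe* (9.29-fold). *Dab2* is the glomerulosa marker used above, and cells with *Wnt4* had a median of 6155.5 UMIs against 4890 without. Of the 2573 cells without *Wnt4*, 1685 were in the *Akr1c18*-high cluster, so these folds also reflect the mix of clusters. For *Wnt5a* in fibroblast-like cells (19 with, 70 without) they were *Mgst1*, *Clu*, *Akr1cl*, *Cyp21a1* and *Cyp11a1*, at 9.81-fold to 5.19-fold. *Cyp11a1* and *Cyp21a1* among them encode steroid-making enzymes. For *Wnt6* in sustentacular-like cells (39 with, 140 without) they were *Rflna*, *Sfswap*, *Gtf2h5*, *Fst* and *Pkig*, at 3.70-fold to 2.63-fold from 11 to 19 UMIs, *Fst* encoding follistatin, which binds activin. For *Wls* in the same class the globin genes *Hba-a1* (12.3-fold) and *Hbb-bs* (10.7-fold) led in its 18 cells, ahead of *Gask1b*, *Adamts1* and *Col14a1*. Both globin genes are erythroid markers. The class held 8403 CPM of the erythroid markers, with *Hbb-bs* in 14.5% of its cells. The part of red-cell RNA in these folds was not tested. For *Wnt5b* in cycling cortex-like cells (13 with) they were *Zfp36*, *Btg2*, *Hspb8*, *Ppp1r15a* and *Tomm34*, at 5.69-fold to 2.82-fold from 13 to 29 UMIs. Most of these are known as stress-response genes. For *Wnt16* in adrenaline chromaffin-like cells (24 with) they were *Mdk*, *Thtpa*, *Stmn4*, *Acvr1* and *Selenop*, at 3.06-fold to 2.65-fold from 5 to 18 UMIs. Each list was picked by fold, and large folds from few UMIs can arise from counting error. The 24 cells had a median of 5806 UMIs against 3147 for the others.

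Over the 11 classes, the genes whose log2(CPM + 1) went most closely with each member were also taken, by Pearson correlation across classes that share 1 library. For *Wnt4* these were *Mc2r*, the gene for the corticotropin receptor (r = 0.98), *Ly6d*, *Mgarp*, *Gpha2* and *Mmp19*. The classes do not divide the zones of the cortex, so this likeness is to the cortex as a class. For *Wnt5a* they were *Agt* (r = 0.93), *Fbn1*, *Tpm2*, *Gas1* and *Copz2*, with the matrix gene *Fbn1* at 183 CPM in fibroblast-like cells. For *Wnt6* they were *Col9a2* (r = 0.98), *Lrrtm1*, *Fam107a*, *Tmprss5* and *Paqr6*, at 86.5 to 229 CPM in sustentacular-like cells. *Wnt16* went with *Galnt14* (r = 0.98), *Il17rb*, *Rab15* and *Cd164l2*, *Wnt5b* with *Dolk* (r = 0.92), *Tnfrsf19*, *Rerg*, *Foxc1* and *Spaca1*, and *Wls* with *Pdlim7* (r = 0.90), *Sfswap*, *Sept7*, *Csrp1* and *Rsbn1l*.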

How the data were processed

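Processed data from 1 droplet library (10x Genomics 3′ chemistry) were used. The authors deposited UMI counts per gene and barcode, made with Cell Ranger 4.0.0 and the genome build mm10 per the submitters' processing notes; the annotation version is not given in the sources used here. Barcodes with 500 to 5000 genes and at most 20% mitochondrial UMIs were kept and clustered with Seurat 5.3.0 in R 4.3.3 (2000 variable genes, 10 principal components, resolution 0.4). A class was named where at least 3 of its markers had a UMI in 50% of cells (25% for sustentacular and cycling cells). Doublets were called with Scrublet in scanpy 1.11.5 at a rate of 8% and kept, with counts given. Levels are summed UMIs per 1000000 UMIs (CPM), computed with numpy 2.4.6, scipy 1.17.1 and pandas 2.3.3 in Python 3.11.15. Intervals are 95%, and UMIs outside the cells compared were flagged above 3 counts, a limit set for a count of 0. Shares were also taken after thinning to 1000 UMIs per cell, which leaves out cells with fewer. Genes were compared by the fold of CPM + 10, called at 2-fold with 20 UMIs or more. The folds and intervals were tested on counts simulated for sustentacular-like over transitioning-like cells. There 100 genes were raised and 100 lowered 4-fold, which also shifts the share of all others. The fold rule called 928 unchanged genes among the 9583 run.

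Cortex cells were to be divided into 4 equal groups by *Cyp11b1* CPM, but 1999 of the 3677 without *Cyp11b2* had no *Cyp11b1* UMI, so 3 groups were formed: none, lower and highest, with 161 cells (4.38%) within 10% of the boundary at 2945 CPM and 155 with 1 *Cyp11b1* UMI. Each member's leading class was the highest by CPM with at least 10 UMIs, a minimum set after the values were seen. The text names the members, the ligand, export and receptor lists, the zone genes, and for each member the 5 genes most alike over classes and the 5 that most separated its cells (UMI in 10% of its cells); 1 of these genes is not reported here. The members and lists were chosen with earlier results of these data known. No replicate exists, so no test was run.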

Additional observations from a re-analysis of the deposited data

Results flagged for a closer look

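Some UMIs of the 6 genes lay outside the cells compared. In the 730 cells of clusters with markers of more than 1 lineage, of which 68.5% were called doublets, *Wnt4* had 85 UMIs, *Wnt5a* 51, *Wnt5b* 6, *Wnt6* 14, *Wnt16* 5 and *Wls* 161. In the 1075 barcodes outside the limits on genes and mitochondrial UMIs, *Wnt4* had 263 UMIs (95.3 CPM) in 24 barcodes, *Wnt5a* 43, *Wnt5b* 5, *Wnt6* 8 and *Wls* 100. No control sample exists, so these were set against the limit of 3 counts that a count of 0 allows, and their source was not tested.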

How the results depend on the processing

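No paired analysis was possible because there was 1 library. Of the values recomputed, 85 stayed the same, 51 moved and 6 reversed (a level, share or ratio stayed if it lay in the 95% interval of the reported value, a count of genes if within 1.5 times), and the cause was not tested unless the setting itself removes cells or UMIs. A ratio outside that interval was called reversed where its value crossed 1, whether or not its own interval included 1. Stricter limits (1000 genes, 10% mitochondrial UMIs) removed whole classes, so *Wnt5a* in fibroblast-like and *Wnt6* and *Wls* in sustentacular-like cells gave no value there, nor did *Wnt5a* in fibroblast-like cells at resolution 0.2. The ratio of *Wnt5a* by *Cyp11b2* gave none at 2 UMIs or more, thinned, or in the *Cyp11b1*-high cluster alone. The leading class of *Wnt5a* became cortex-like at resolution 0.2 (37.4 CPM) and under the stricter limits (30.6), that of *Wnt6* transitioning-like (19.6) and that of *Wls* noradrenaline chromaffin-like (69.4) under the stricter limits.

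*Wnt4* in cortex-like cells was 123 CPM at resolution 0.8, 137 under the stricter limits, 111 over cells chosen by their own markers, 145 as a mean over cells and 145 thinned. With cells chosen by their own markers, *Wnt5a* in fibroblast-like cells was 35.6 CPM and *Wnt6* in sustentacular-like cells 101, and *Wnt16* in adrenaline chromaffin-like cells was 5.42 thinned. *Wnt4* in cells with over without *Cyp11b2* was 11.4 at 2 UMIs or more, 14.8 thinned, 11.04 under the stricter limits, 2.81 in the *Dab2*-high and 3.64 in the *Cyp11b1*-high cluster. *Wnt4* in the lower over the highest *Cyp11b1* group was 2.16 with 3 equal groups, 2.03 thinned, 2.25 and 1.74 in these clusters, and reversed to 0.921 under the stricter limits. In the highest group over cells without *Cyp11b1* it was 2.81 with 3 equal groups, 5.74 under the stricter limits and 1.69 without cycling cells, and reversed to 0.901 thinned, 0.155 and 0.431 in the clusters, where *Wls* reversed to 0.653 and 0.769. The intervals of 0.921, 0.901, 0.653 and 0.769 include 1, so these values did not separate the groups. *Wnt5a* there was 4.64 thinned, 2.75 and 1.77. The settings within 1 cluster were added after seeing the data. When thinned, and under the stricter limits, the *Cyp11b2* and *Cyp11b1* groups were formed anew and so hold other cells than the reported groups.

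The share of cortex cells with *Wnt5a* among those with and without *Wnt4* was 4.87% and 2.94% thinned, 12.5% and 2.63% at 2 UMIs or more, and 48.2% and 18.3% above the median depth. In the *Dab2*-high cluster it was 5.05% and 3.99%, 10.1% and 4.31%, and 49.7% and 37.0%. The female over male ratio in that cluster was 1.42 for *Wnt4* and 1.01 for *Wnt5a*, against 1.95 and 1.34 over the cortex. Genes past the fold at 3-fold, and with a pseudocount of 1 CPM, numbered 303 and 4339 by *Cyp11b2*, 262 and 2040 by *Cyp11b1*, 215 and 1600 for *Dab2*-high over *Cyp11b1*-high cells, 193 and 1987 by *Wnt4*, 1110 and 6870 for sustentacular-like, 720 and 5829 for fibroblast-like and 964 and 5239 for cortex-like cells.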
